A study of Mus musculus with 20 samples.

Results

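Ovaries labelled as carrying ovarian cancer and treated with LNPIFN-Y were compared with Control ovaries. The comparison used 5 LNPIFN-Y and 5 Control libraries, which are 10 of the 20 mouse ovary RNA-seq libraries of the series, and every gene of the expected-count table. The series text describes C57BL/6 mice in which ID8Luci cells, a luciferase-marked mouse ovarian surface epithelial tumour line, were injected surgically into the bursa around the ovary after the bursa had been widened with a peptide-targeted lipid nanoparticle (ptLNP) carrying FSHα&β. The Control libraries have the treatment entry N/A, which names neither a tumour nor sham surgery. The 5 Model libraries are labelled ovarian cancer alone, the 5 LNPIFN-Y libraries ovarian cancer with LNPIFN-Y, and the 5 ptLNPIFN-Y libraries ovarian cancer with the ptLNP form. What the particle without the pt prefix is stands in none of the labels, and the series text does not list that arm. No age, sex, dose or genotype beyond the strain is labelled, and nothing in the labels ties a library to an animal, so p-values measure only the spread between libraries, which may be technical. LNPIFN-Y ovaries differ from Control ovaries in both tumour and particle, and no group received an empty particle. By the series text the tumour model also involves surgery and the ptLNP carrying FSHα&β, neither of which the Control label names. The effects of tumour, surgery, FSHα&β particle and the LNPIFN-Y particle, with whatever it carries, therefore cannot be told apart in this comparison. No gene specific to ID8Luci cells was used here to check either group for tumour cells.

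Interferon-γ (IFN-γ) is a cytokine made mainly by T cells and natural killer (NK) cells. Its receptor signals through JAK kinases to GAS elements in DNA and induces transcription factors such as IRF1. Through GAS and ISRE elements the signal reaches genes for antigen presentation, chemokines that attract T cells, GTPases that attack intracellular parasites, and checkpoint ligands such as PD-L1. The ovary itself holds follicles, made of an oocyte surrounded by granulosa and theca cells, together with stroma, vessels and a mesothelial surface layer, and lies against the oviduct and a fat pad.

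Each library held between 16529892 and 17113937 expected counts in the LNPIFN-Y group and between 16613167 and 16998557 in the Control group. Marker genes of the ovary and of neighbouring tissue differed between libraries of the same group. Genes were described in lists, and a list level is the mean over its tested members of log2 CPM (expected counts scaled to library size with TMM factors) after each gene was centred on its mean over all 20 libraries. The granulosa list level was 0.99, 0.72, 1.46, 0.80 and 1.25 in Control 1 to 5 and -2.42, 0.13, 0.13, 0.54 and -3.11 in LNPIFN-Y 1 to 5. LNPIFN-Y 1 and 5 lay far below the other libraries of both groups, whereas LNPIFN-Y 2 to 4 lay below the Control range by less. The oocyte list gave 1.19, -0.090, 1.33, 1.53 and 1.41 in Control and -1.91, 1.08, 0.43, 1.03 and -4.26 in LNPIFN-Y, with the same 2 LNPIFN-Y libraries lowest. The mRNA for Zp3, a protein of the egg coat, had 40, 506, 260, 451 and 0 expected counts in LNPIFN-Y 1 to 5, and Amh, a hormone of growing follicles, had 183, 2068, 1371, 1923 and 30. Zp3 and Amh were thus at or near 0 in LNPIFN-Y 5 and low in LNPIFN-Y 1. Cilia genes of the oviduct showed another split, with list levels of 2.78, 3.87, 3.10, 2.15 and 0.40 in Control and -2.49, -1.32, 2.43, -2.75 and -3.16 in LNPIFN-Y, where LNPIFN-Y 3 alone reached the Control range. Results were also computed without LNPIFN-Y 1 and 5 (an alternative added after seeing the data) and with the oviduct and follicle list levels as covariates, called tissue covariates below. The oviduct covariate was 2.18, 3.06, 2.21, 1.74 and 0.0099 in Control 1 to 5 and -2.16, -1.23, 1.67, -1.85 and -2.88 in LNPIFN-Y 1 to 5. Because it differs between the groups, it can take up part of the group difference of any gene. Whether tissue content accounts for a call lost with these covariates was not tested. Counts of called list members that either one changed, and calls of named genes that either one ended, are given with the gene lists. With the call kept, the tissue covariates moved 40 of 136 called genes named in the text by over 1.5 times, 39 of them to a smaller change, and leaving out LNPIFN-Y 1 and 5 moved 18, all of them to a smaller change.

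**Figure D1:**
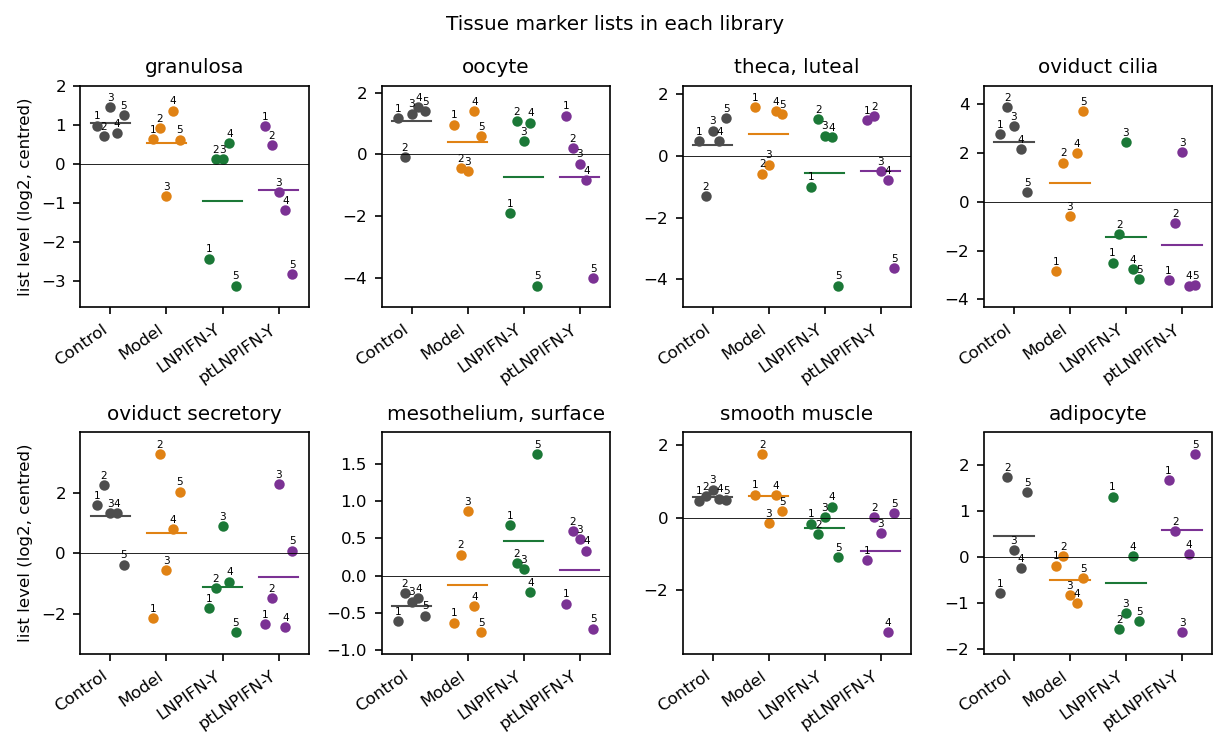
Level of 8 tissue marker lists (mean of gene-centred log2 CPM) in each of the 20 libraries, with the library number above each point and the group mean as a line. LNPIFN-Y 1 and 5 sit lowest of their group in the granulosa, oocyte, and theca and luteal lists, and LNPIFN-Y 3 is the one library of its group near the Control libraries in the oviduct cilia list.

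Of 15723 genes tested, 1699 rose (10.8%) and 515 fell (3.28%) at an adjusted p under 0.05 (edgeR quasi-likelihood test, Benjamini-Hochberg adjustment over all genes tested). All log2 fold changes below are LNPIFN-Y over Control unless another pair is named, and adjusted p-values come from that test unless another fit is named. The median log2 fold change was 1.55 among genes that rose, -0.73 among genes that fell, and -0.021 over all genes tested. At least 3 log2 units separated the groups for 322 of the genes that rose and 23 of those that fell. In 13.0% of genes every LNPIFN-Y library lay above every Control library, and in 6.5% every LNPIFN-Y library lay below. The balance depended on the scaling: 76.7% of the calls were higher with TMM factors, 59.2% with upper-quartile scaling and 52.0% with library size alone, which moved the median of all genes to -0.11 and -0.15. Leaving out LNPIFN-Y 1 and 5 gave 835 genes higher and 32 lower, of which 822 and 25 were among the calls above. The tissue covariates gave 578 genes higher and 25 lower. The number higher over all genes thus went from 1699 to 578 with the tissue covariates and to 835 without LNPIFN-Y 1 and 5. List counts under both alternatives are to be read beside those numbers, since a drop in calls need not be particular to a list. Leaving out LNPIFN-Y 3, the library with oviduct genes, gave 1865 higher and 1411 lower. The numbers higher and lower were 1219 and 340 without Control 1, 1293 and 189 without Control 2, 1120 and 245 without Control 3, 1254 and 192 without LNPIFN-Y 1, and 1172 and 201 without LNPIFN-Y 5.

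**Figure D2:**
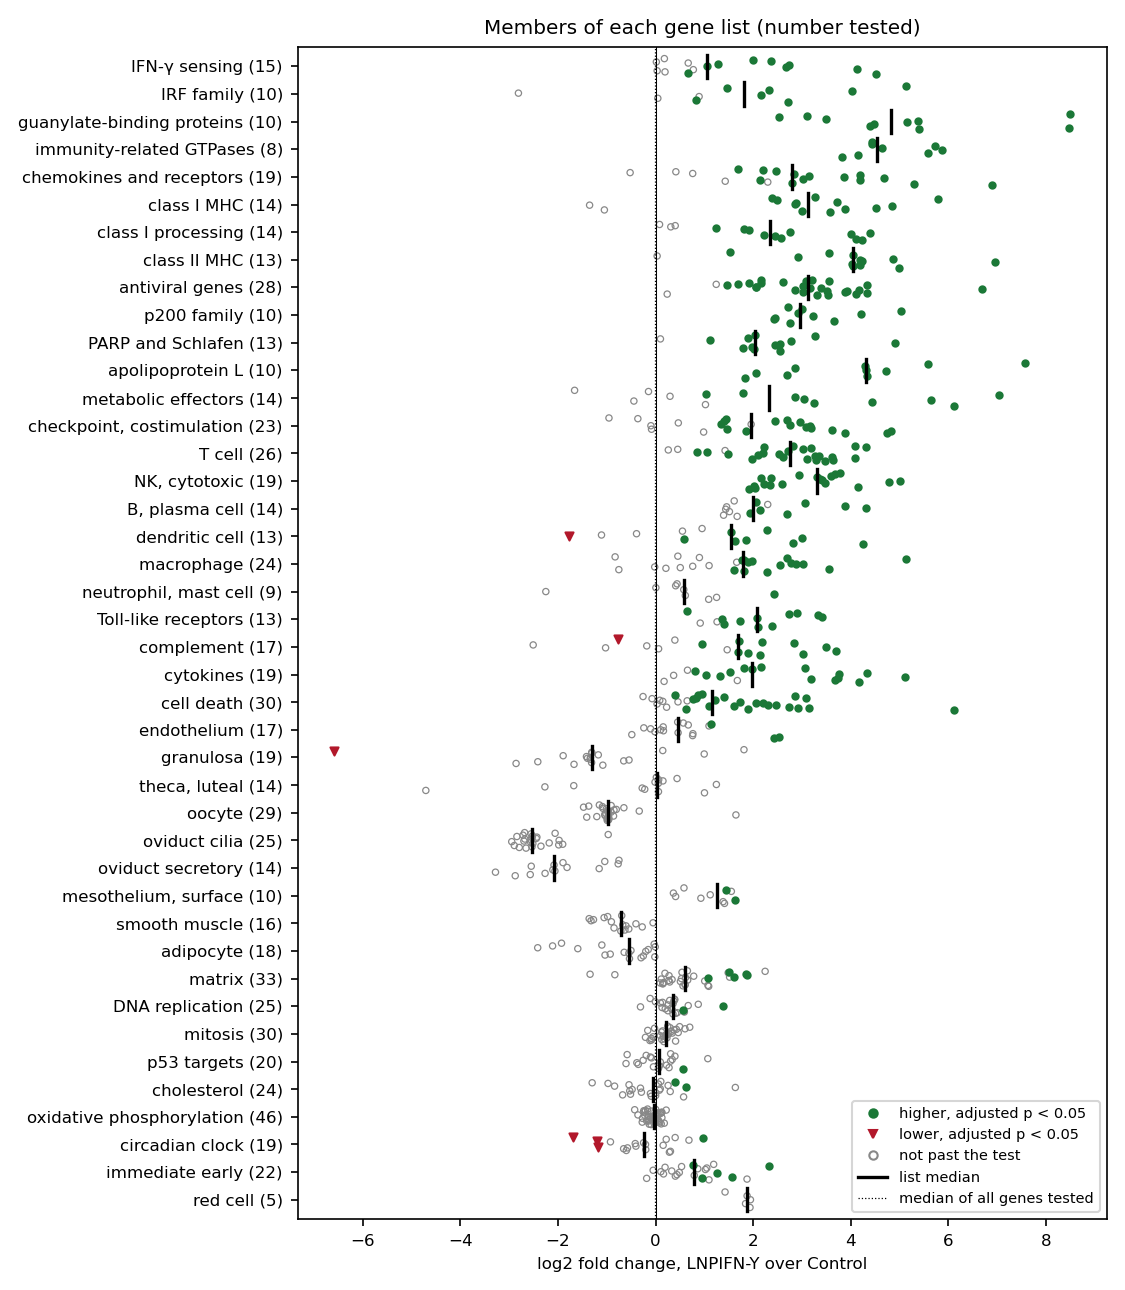
log2 fold change of LNPIFN-Y over Control for every tested member of 42 gene lists, with the number tested in brackets; filled points passed the test (adjusted p under 0.05) and the black bar is the list median. The medians of the interferon, antigen presentation and lymphocyte lists lie to the right of the median of all genes (dotted line at -0.021). They reach 4.81, although single members of some of these lists lie to the left. The oviduct lists lie to the left with medians of -2.53 and -2.07.

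Most genes that sense and relay IFN-γ rose. Of the 15 tested members of the IFN-γ sensing list, 9 rose, against 10.8% of all genes, with a list median of 1.06; 7 with the tissue covariates and 7 without LNPIFN-Y 1 and 5 were called. Ifng itself, the cytokine gene (chr10:118441046-118445894, plus strand, GRCm38), had 0, 0, 1, 1 and 2 expected counts in Control 1 to 5 and 10, 52, 6, 5 and 24 in LNPIFN-Y 1 to 5. Every LNPIFN-Y library lay above every Control library, and the log2 fold change was 4.51 (SE 0.77, adjusted p = 5.47e-04). Without LNPIFN-Y 2, the library with the highest count, it was 3.79 (adjusted p = 0.00159). What LNPIFN-Y carries is not labelled, and whether reads from any delivered mRNA were counted under Ifng was not tested. Stat2, a factor of interferon-induced DNA-binding complexes, changed by 2.68 (SE 0.16, adjusted p = 3.42e-09), and Socs1, a feedback inhibitor of JAK kinases, by 2.72 (SE 0.34, adjusted p = 2.16e-05). Ifngr1, a receptor chain, rose by 0.67 (adjusted p = 0.0434), but this call was lost without Control 1, 2, 3 or 4 or LNPIFN-Y 1, 2 or 5 (adjusted p from 0.0536 to 0.135), at 0.32 (adjusted p = 0.443) without LNPIFN-Y 1 and 5 and at 0.082 (adjusted p = 0.902) with the tissue covariates. The other receptor chain, Ifngr2, was at 0.19 (adjusted p = 0.262).

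Interferon regulatory factors rose in 7 of 10 tested members, against 10.8% of all genes, with a median of 1.81. With the tissue covariates 6 were called higher, and without LNPIFN-Y 1 and 5 the number was 7. The 1 member with a negative value was at -2.81 and was not called by edgeR. DESeq2 and limma with sample weights each called 1 member lower. Irf1, the factor that the series text places downstream of IFN-γ, was at 44.9, 41.1, 37.9, 46.7 and 54.2 CPM in Control 1 to 5 and 422, 238, 192, 273 and 354 CPM in LNPIFN-Y 1 to 5. Its groups did not overlap, and the log2 fold change was 2.72 (SE 0.22, adjusted p = 1.17e-07). Batf2, a partner of IRF1 in activated macrophages, went from 0.838 ± 0.193 to 29.6 ± 10.3 CPM (mean ± SD, n = 5), a change of 5.13 (SE 0.42, adjusted p = 1.09e-07). Irf7, a driver of type I interferon genes, changed by 4.03 (adjusted p = 5.00e-08), and Irf9, the DNA-binding partner of STAT2, by 1.46 (adjusted p = 1.86e-08). Irf3, which is activated by phosphorylation of existing protein, was at 55.6 to 58.98 CPM in Control and 54.3 to 63.3 CPM in LNPIFN-Y, a difference of 0.046 (adjusted p = 0.604) whose sign turned with upper-quartile scaling (-0.047) and with library size alone (-0.083).

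**Figure D3:**
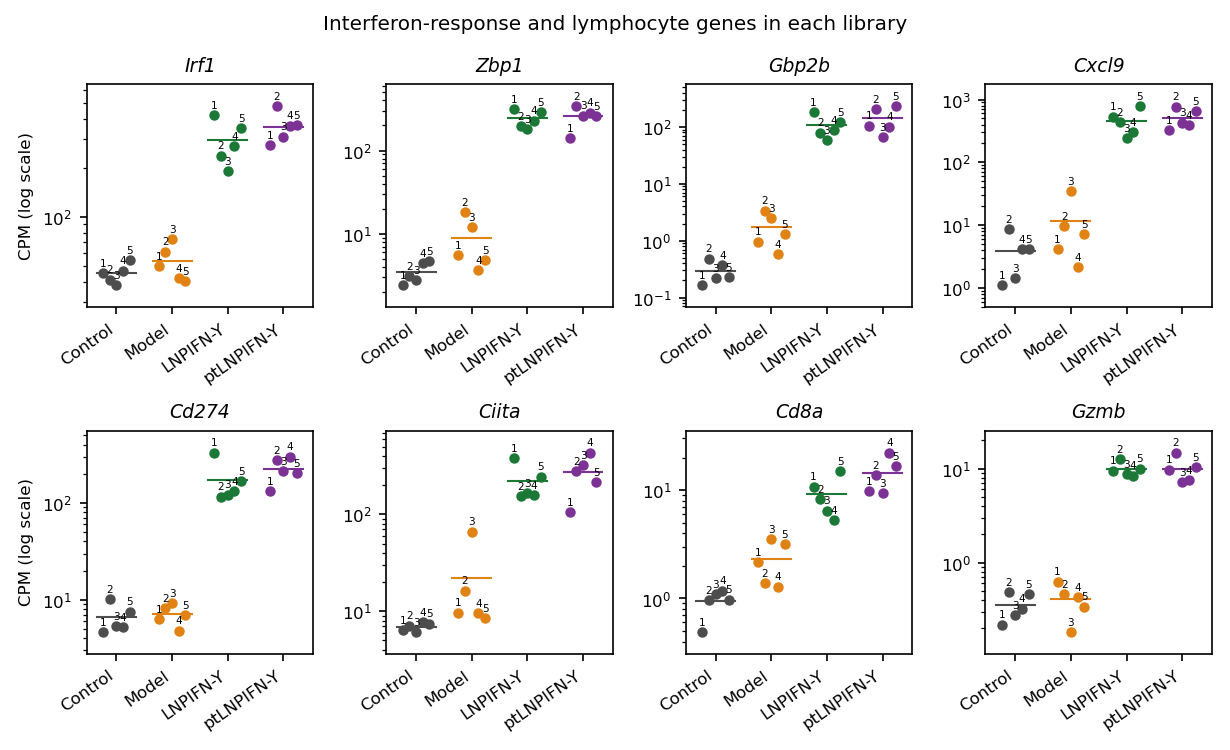
CPM on a log scale of 8 genes in each library of the 4 groups, with the library number above each point and the group mean as a line. In all 8 genes the 5 LNPIFN-Y libraries lie above the 5 Control libraries, and for Cxcl9 they reach 245 to 788 CPM against 1.09 to 8.56.

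Both families of interferon-inducible GTPases that act on vacuoles with intracellular pathogens rose in every tested member of their lists, 10 of 10 guanylate-binding proteins and 8 of 8 immunity-related GTPases. Over all genes 10.8% rose, and the medians of these 2 lists were 4.81 and 4.54. Gbp2b (chr3:142594816-142619179, plus strand, GRCm38) had 0.163, 0.486, 0.220, 0.376 and 0.230 CPM in Control and 185, 79.4, 58.7, 88.9 and 122 CPM in LNPIFN-Y, and its change was 8.47 (SE 0.60, adjusted p = 2.11e-08). Gbp10 had 0.654, 2.79, 1.21, 2.74 and 1.55 CPM in Control and 1149, 372, 427, 562 and 721 in LNPIFN-Y, with 8.49 (SE 0.53, adjusted p = 4.49e-09). Gbp2 went from 61.1 ± 11.003 to 2558 ± 1063 CPM (5.39, SE 0.32, adjusted p = 3.58e-09). Neither group overlapped the other for these 3 genes, and LNPIFN-Y 1 was highest in each. Some members are close copies of each other, such as Tgtp1 and Tgtp2, so the split of reads between them is uncertain. Among the immunity-related GTPases, Iigp1 rose by 5.87 (SE 0.36, adjusted p = 3.99e-09), Tgtp1 by 4.65, Tgtp2 by 5.72, Igtp by 5.58, Irgm2 by 4.15 and Irgm1 by 3.81, all called. All 18 members kept their calls with the tissue covariates and without LNPIFN-Y 1 and 5.

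The RefSeq promoter windows of these genes (GRCm38.p6, 250 bases before to 50 after the start) were searched on both strands for a GAS pattern (TTC and GAA with 3 bases of any kind between) and an ISRE pattern (GAAA and GAAA with 2 bases of any kind between). The stretches below show why 4 of the GTPases are set beside Irf1: each holds both patterns next to each other, while Irf1 holds a GAS pattern, in 1 of its 2 windows, and Gbp2b an ISRE pattern. They are written 5′ to 3′ on the gene's own strand with the matched letters in capitals.
Irf1, chr11:53769906-53769950, plus strand: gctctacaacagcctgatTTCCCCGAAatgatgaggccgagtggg
Tgtp1, chr11:48992296-48992352, minus strand: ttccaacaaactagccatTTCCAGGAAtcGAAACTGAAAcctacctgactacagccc
Tgtp2, chr11:49064255-49064311, minus strand: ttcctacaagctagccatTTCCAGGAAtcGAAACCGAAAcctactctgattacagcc
Igtp, chr11:58199493-58199549, plus strand: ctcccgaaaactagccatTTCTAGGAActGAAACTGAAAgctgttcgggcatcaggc
Irgm2, chr11:58214884-58214940, plus strand: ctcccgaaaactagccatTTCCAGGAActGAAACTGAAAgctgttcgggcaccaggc
Gbp2b, chr3:142594692-142594737, plus strand: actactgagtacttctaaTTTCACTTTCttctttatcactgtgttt
In Tgtp1, Tgtp2, Igtp and Irgm2 the GAS letters come first and the ISRE letters follow after 2 bases, at 88, 81, 45 and 75 bases before the annotated start. These 4 genes are related copies, so their shared spacing does not amount to 4 independent cases. In Gbp2b the ISRE match is on the opposite strand. Over all 32851 windows, 8.3% held the GAS pattern, 3.44% the ISRE pattern and 0.454% both. Of the genes tested, 12454 had a window, with 8.33%, 3.91% and 0.506%. Among 1319 genes that rose and had a window, the shares were 10.7%, 11.4% and 2.12%. They were 14.8%, 23.6% and 4.8% among the 229 genes that rose by at least 3 log2 units. Of 422 genes that fell and had a window, 7.58% held GAS and 3.08% ISRE. A gene was counted where any of its windows held the pattern. Other GTPases differed. Ifi47, an immunity-related GTPase that rose by 4.43, held neither pattern in its window. Irgm1 held 2 ISRE patterns, Gbp3 2 in 1 of its 2 windows and Gbp2 1, all without GAS. Gbp5 and Gbp7 each held 2 GAS patterns and 1 ISRE pattern. The windows of Cxcl9, Cd274, Psmb9, Tap1, H2-Eb2, Ubd and Mybphl, genes that rose, held neither pattern, and a match is letters in a window, not a bound site.

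Antigen presentation genes rose in both classes. The class I list, the molecules that show peptides to CD8+ T cells, had 12 of 14 tested members higher. This compares with 10.8% of all genes, and the list median was 3.13. B2m, the shared light chain, went from 508 ± 196 to 4860.5 ± 639 CPM (3.26, SE 0.29, adjusted p = 4.36e-07). H2-K1, a classical heavy chain, changed by 3.58 (adjusted p = 6.43e-09), and H2-Q4, a non-classical one, by 3.89 (adjusted p = 2.71e-10). H2-M2 rose from 0, 3, 0, 0 and 8 to 172, 154, 117, 68 and 89 expected counts. That change was 5.79 (SE 1.001, adjusted p = 5.92e-04), and 7.18 (adjusted p = 3.27e-04) without Control 5, the Control library with most of its counts. The non-classical H2-Q2 and H2-Q10 did not pass, at -1.05 (adjusted p = 0.358) and -1.35 (adjusted p = 0.291); the sign of H2-Q2 turned to 0.88 with the tissue covariates. Class I heavy chains are close in sequence, so reads may be split between them. Of the class I processing list, 11 of 14 rose, with a median of 2.33. Psmb9, a subunit of the immunoproteasome, had 9.32, 12.8, 7.86, 11.6 and 10.6 CPM in Control and 313, 174, 180.1, 199.8 and 224 CPM in LNPIFN-Y (4.39, SE 0.33, adjusted p = 4.55e-08). Tap1, a subunit of the peptide transporter, and Nlrc5, the transactivator of class I genes, changed by 4.11 (adjusted p = 1.84e-09) and 4.22 (adjusted p = 1.25e-09). Calr, a general chaperone that also serves class I folding, was at 0.40 (adjusted p = 0.0586).

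The class II list, which presents peptides to CD4+ T cells, rose in 12 of 13 tested members, against 10.8% of all genes. Its median was 4.05. Ciita (chr16:10480014-10531064, plus strand, GRCm38), the master switch of class II genes, was at 6.32, 7.11, 6.10, 7.74 and 7.46 CPM in Control and 383, 154, 167, 159 and 245 CPM in LNPIFN-Y. Its groups did not overlap (4.99, SE 0.59, adjusted p = 1.12e-05). Cd74, the invariant chain that guards the class II groove, was 222 CPM in Control and 3668 CPM in LNPIFN-Y on average (4.05, SE 0.54, adjusted p = 4.01e-05). H2-DMa, which loads peptide, changed by 4.23 (adjusted p = 1.19e-06). H2-Eb2 had 2, 3, 2, 4 and 9 expected counts in Control and 915, 289, 654, 297 and 201 in LNPIFN-Y (6.96, SE 1.12, adjusted p = 3.04e-04). All 12 called class II genes were also higher than in the Model group, where the list median over Control was 1.42 and single libraries differed: Ciita was 9.67, 16.3, 66.5, 9.60 and 8.43 CPM in Model 1 to 5, with Model 3 far above the others.

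Chemokines and their receptors rose in 14 of 19 tested members, against 10.8% of all genes, with a median of 2.79. With the tissue covariates 8 were called, and 9 without LNPIFN-Y 1 and 5. Cxcl9 (chr5:92321331-92328079, minus strand, GRCm38), which attracts T cells through CXCR3, was at 1.09, 8.56, 1.43, 4.14 and 4.19 CPM in Control and 536, 440.2, 245, 299 and 788 CPM in LNPIFN-Y. The lowest LNPIFN-Y library was still far above the highest Control library (6.90, SE 0.79, adjusted p = 7.56e-06). Cxcl10, a second CXCR3 ligand, changed by 5.30 (adjusted p = 7.24e-06), Ccl5, which attracts T cells and monocytes, by 4.19 (adjusted p = 8.21e-06), and the receptor Cxcr3 by 2.79 (adjusted p = 2.24e-06). Of the cytokine list, 15 of 19 rose with a median of 1.98, but 7 with the tissue covariates and 11 without LNPIFN-Y 1 and 5. Il12rb1, a receptor chain for IL-12, changed by 5.11 (SE 0.50, adjusted p = 1.11e-06), and Il18bp, the secreted inhibitor of IL-18, by 3.76 (SE 0.26, adjusted p = 1.30e-08). Tnf rose by 4.17 (adjusted p = 1.05e-04), Il27, made by activated antigen-presenting cells, by 4.34 (adjusted p = 5.20e-04), and Il10, an anti-inflammatory cytokine, by 3.19 (adjusted p = 0.00985). The Il10 call was lost with the tissue covariates at 2.04 (adjusted p = 0.247) and without LNPIFN-Y 1 and 5 at 2.70 (adjusted p = 0.0819). Il1b, a product of inflammasome activation, was at 1.68 (adjusted p = 0.121).

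Checkpoint and costimulation genes rose in 16 of 23 tested members, against 10.8% of all genes, with a median of 1.96. With the tissue covariates 13 were called, and 14 without LNPIFN-Y 1 and 5. Cd274, which encodes PD-L1 (chr19:29362107-29388095, plus strand, GRCm38), was at 4.63, 10.1, 5.33, 5.16 and 7.52 CPM in Control and 333, 116, 122, 133 and 168 CPM in LNPIFN-Y. The groups did not overlap, and LNPIFN-Y 1 stood highest (4.73, SE 0.35, adjusted p = 3.53e-08). Ctla4, an inhibitory receptor of T cells, had 0, 2, 0, 4 and 2 expected counts in Control and 93, 45, 29, 19 and 34 in LNPIFN-Y (4.82, SE 0.81, adjusted p = 4.65e-04). Havcr2 and Lag3, which encode the inhibitory receptors TIM-3 and LAG-3, changed by 3.62 (adjusted p = 3.15e-04) and 1.85 (adjusted p = 1.15e-04), and Cd86, the ligand shared by CD28 and CTLA-4, by 3.18 (adjusted p = 3.87e-05). Pdcd1, which encodes the PD-1 receptor for PD-L1, had 1.47, 1.34, 2.09, 3.23 and 4.82 CPM in Control and 9.66, 5.94, 3.70, 2.19 and 4.17 CPM in LNPIFN-Y. Those ranges overlapped and the log2 fold change was 0.98 (adjusted p = 0.166).

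Genes of cell-intrinsic antiviral defence rose in 26 of 28 tested members, against 10.8% of all genes, with a median of 3.13. Oas3, which makes the activator of the nuclease RNase L, had 0.381, 0.729, 0.495, 1.24 and 1.43 CPM in Control and 120.4, 59.3, 48.3, 46.4 and 170.4 CPM in LNPIFN-Y (6.69, SE 0.87, adjusted p = 3.20e-05). Isg15, a ubiquitin-like modifier, changed by 3.92 (adjusted p = 3.81e-07), Ifit3, which binds foreign RNA with its partners, by 4.34 (adjusted p = 9.72e-08), and Samhd1, which depletes nucleotides, by 3.21 (adjusted p = 8.40e-08). These genes respond to type I interferon and to IFN-γ, and the list does not separate them. All 10 tested genes of the p200 family of DNA sensors rose (median 2.96). The member with the fewest counts, Ifi214, had 1 expected count over all Control libraries and 48 over LNPIFN-Y, a ratio of 48 (95% counting interval 8.21 to 1935, exact). Its Control count lay in Control 2, without which the fitted value moved by over 1.5 times with the call kept (adjusted p = 0.00478), and the call was lost with the tissue covariates (adjusted p = 0.147). Ifi213 changed by 2.92 (adjusted p = 2.40e-06). PARP and Schlafen genes rose in 12 of 13 (median 2.04), among them Slfn1 by 4.91 (adjusted p = 2.97e-06) and Parp9 by 2.54 (adjusted p = 9.29e-08). All 10 apolipoprotein L genes rose (median 4.30), and Apol11b went from 0.0545, 0.182, 0.330, 0.215 and 0.344 CPM in Control to 57.3, 47.7, 35.4, 45.1 and 34.8 CPM in LNPIFN-Y (7.57, SE 0.45, adjusted p = 3.71e-09). With the tissue covariates 8 p200, 10 PARP and Schlafen and 9 apolipoprotein L genes were called, against 9, 11 and 8 without LNPIFN-Y 1 and 5.

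Metabolic effectors of interferon-activated cells rose in 9 of 14 tested members (median 2.32), against 10.8% of all genes. With the tissue covariates 8 were called, and 8 without LNPIFN-Y 1 and 5. Ubd, a ubiquitin-like protein that targets others to the proteasome, had 0.0545, 0.364, 0.275, 0.215 and 0.631 CPM in Control and 60.5, 34.8, 15.9, 49.7 and 45.5 CPM in LNPIFN-Y (7.04, SE 0.64, adjusted p = 4.62e-07). Ido1, which breaks down tryptophan, had 1, 3, 1, 0 and 0 expected counts in Control and 131, 19, 33, 82 and 88 in LNPIFN-Y (6.12, SE 0.96, adjusted p = 2.30e-04). That value was 6.998 (adjusted p = 4.14e-04) without Control 2, the Control library with the most counts. Acod1, which makes itaconate in activated macrophages, changed by 5.64 (adjusted p = 1.45e-04) and by 6.76 (adjusted p = 6.40e-05) without Control 5. Wars, a tryptophan tRNA synthetase, changed by 1.79 (adjusted p = 4.47e-07). Nos2, the inducible nitric oxide synthase, had 49.5, 22.96, 41.2, 44.5 and 63.02 CPM in Control and 11.2, 59.5, 27.2, 35.3 and 29.4 CPM in LNPIFN-Y, overlapping ranges with a log2 fold change of -0.44 (adjusted p = 0.548) that turned to 0.053 with the tissue covariates.

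T cell genes rose in 23 of 26 tested members (median 2.76) and NK and cytotoxic genes in 19 of 19 (median 3.30). Over all genes 10.8% rose. In whole tissue, more cells of a type and more RNA per cell cannot be told apart, nor can fewer cells and less RNA per cell. Cd8a, the coreceptor of cytotoxic T cells, was at 0.490, 0.972, 1.10, 1.18 and 0.976 CPM in Control and 10.8, 8.32, 6.49, 5.29 and 15.01 CPM in LNPIFN-Y. Its groups did not overlap (3.27, SE 0.38, adjusted p = 9.30e-06). Cd3e and Cd3g, chains of the T cell receptor complex, changed by 3.63 (adjusted p = 9.08e-06) and 3.28 (adjusted p = 7.56e-06). Foxp3, the factor of regulatory T cells, had 0, 5, 2, 2 and 2 expected counts in Control and 110, 29, 21, 33 and 17 in LNPIFN-Y. LNPIFN-Y 1 had the most, and the change was 4.31 (SE 0.81, adjusted p = 0.00128) with it and 3.51 (adjusted p = 0.00403) without it. Tcf7 and Lef1, factors of naive and memory T cells that other ovarian cells may also express, were at 0.26 (adjusted p = 0.562) and 0.45 (adjusted p = 0.473), with Tcf7 turning to -0.013 under the tissue covariates. Gzmb (chr14:56258836-56262334, minus strand, GRCm38), a killer-cell protease, was at 0.218, 0.486, 0.275, 0.323 and 0.459 CPM in Control and 9.53, 12.6, 8.71, 8.46 and 9.99 CPM in LNPIFN-Y. LNPIFN-Y libraries were alike and well apart from Control (4.78, SE 0.32, adjusted p = 1.30e-08). Prf1, which forms pores in target cells, changed by 3.41 (adjusted p = 4.74e-06), and Klrk1, the NKG2D receptor, by 4.14 (adjusted p = 4.82e-07). Gzmk had 2 expected counts over the Control libraries and 76 over LNPIFN-Y, a ratio of 38 (95% counting interval 10.2 to 319). Ncr1, a receptor specific to NK and related cells, rose by 1.92 (adjusted p = 0.00543), a call lost with the tissue covariates (1.29, adjusted p = 0.219). With those covariates 19 T cell and 15 NK genes were called, and without LNPIFN-Y 1 and 5 21 and 19.

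B and plasma cell genes rose in 7 of 14 tested members (median 1.996), against 10.8% of all genes. With the tissue covariates 1 was called, and 4 without LNPIFN-Y 1 and 5. Over all genes the number higher also went down, from 1699 to 578 and 835. Jchain, the joining chain of secreted antibodies, was at 11.01, 22.2, 14.01, 8.06 and 19.8 CPM in Control and 535, 148, 531, 218 and 62.2 CPM in LNPIFN-Y. LNPIFN-Y 1 and 3 were highest and LNPIFN-Y 5 lowest, and the groups did not overlap (4.31, SE 0.90, adjusted p = 0.00321). Cd79a, part of the B cell receptor, rose by 2.69 (adjusted p = 0.0250), a call lost without Control 1, 3 or 4 or LNPIFN-Y 2 (adjusted p from 0.0520 to 0.0698), and with the tissue covariates at 1.98 (adjusted p = 0.336) and without LNPIFN-Y 1 and 5 at 2.91 (adjusted p = 0.0659). Ms4a1, a B cell membrane protein, did not pass, at 1.39 (adjusted p = 0.146).

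Myeloid genes rose in part. Dendritic cell genes rose in 8 of 13 tested members (median 1.55), against 10.8% of all genes, and 1 fell, against 3.28%. With the tissue covariates 4 were called higher, and 5 without LNPIFN-Y 1 and 5. Xcr1, the receptor of cross-presenting dendritic cells, had 0.599, 1.21, 1.26, 1.13 and 1.21 CPM in Control and 35.7, 16.7, 12.1, 15.9 and 23.3 CPM in LNPIFN-Y (4.25, SE 0.40, adjusted p = 6.20e-07), and Clec9a, which senses dead cells on the same type, changed by 2.81 (adjusted p = 9.97e-08). Cd209a, a lectin of other dendritic cells, fell by 1.77 on the log2 scale (adjusted p = 0.0293), a call lost without Control 2, 3 or 4 or LNPIFN-Y 2 or 5 (adjusted p from 0.0514 to 0.0788), and with the tissue covariates at -2.02 (adjusted p = 0.157) and without LNPIFN-Y 1 and 5 at -2.02 (adjusted p = 0.0735). Macrophage genes rose in 14 of 24 (median 1.79), 6 with the tissue covariates and 11 without LNPIFN-Y 1 and 5. Ly6c2, a marker of inflammatory monocytes, went from 0.708, 1.03, 0.824, 1.34 and 2.64 CPM in Control to 61.5, 59.1, 32.96, 32.2 and 45.6 CPM in LNPIFN-Y (5.14, SE 0.59, adjusted p = 7.24e-06). Fcgr1, an IFN-γ-inducible antibody receptor, and C1qa, a complement chain made by macrophages, changed by 3.55 (adjusted p = 3.38e-05) and 3.01 (adjusted p = 1.01e-04). The general macrophage genes Adgre1 and Csf1r rose by 2.28 (adjusted p = 0.00124) and 1.81 (adjusted p = 0.00222), and both calls were lost with the tissue covariates, at 1.10 (adjusted p = 0.119) and 0.70 (adjusted p = 0.168). The mannose receptor Mrc1, of tissue-resident macrophages, was at 0.51 (adjusted p = 0.348) and turned to -0.28 under those covariates, and Cd14 at -0.75 (adjusted p = 0.302). Of 9 neutrophil and mast cell genes 1 rose, against 10.8% of all genes: Csf3r, the G-CSF receptor, by 2.42 (adjusted p = 0.00143). With the tissue covariates its value was 1.47 (adjusted p = 0.0729). 

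Innate sensing, complement and cell death genes rose as well, each list in more than the 10.8% of all genes. Toll-like receptors and Myd88 rose in 11 of 13 tested members (median 2.08; 6 with the tissue covariates and 8 without LNPIFN-Y 1 and 5), including Tlr9, which senses DNA, by 3.41 (adjusted p = 7.04e-06) and Tlr12, which senses profilin of parasites, by 2.74 (adjusted p = 1.11e-06). Tlr4, the receptor for endotoxin, was at 0.92 (adjusted p = 0.0977). Complement genes rose in 10 of 17 (median 1.69), and 1 fell, against 3.28% of all genes. With the tissue covariates 6 were called higher, and 6 without LNPIFN-Y 1 and 5. C4b, of the classical pathway, had 55.5, 69.2, 64.5, 82.1 and 89.4 CPM in Control and 1789.8, 614, 674, 829 and 753 CPM in LNPIFN-Y, with LNPIFN-Y 1 highest (3.69, SE 0.44, adjusted p = 1.10e-05). Serping1, the inhibitor of C1, changed by 2.84 (adjusted p = 6.26e-07). C3, the central component, rose by 1.69 (adjusted p = 0.0163), a call lost without Control 1 or 3 or LNPIFN-Y 1 (adjusted p from 0.05002 to 0.0534). Masp1, a protease of the lectin pathway, fell by 0.77 (adjusted p = 0.0227), a call lost without Control 2 or 3 or LNPIFN-Y 1 (adjusted p from 0.0597 to 0.0664). With the tissue covariates C3 and Masp1 were at 1.54 (adjusted p = 0.179) and -0.80 (adjusted p = 0.181), and without LNPIFN-Y 1 and 5 at 1.41 (adjusted p = 0.143) and -0.71 (adjusted p = 0.118). Cell death genes rose in 22 of 30 (median 1.16; 15 with the tissue covariates and 16 without LNPIFN-Y 1 and 5). Zbp1, a sensor of Z-form nucleic acids that can start necroptosis, had 2.40, 3.10, 2.80, 4.41 and 4.71 CPM in Control and 314, 197, 181, 229 and 291 CPM in LNPIFN-Y (6.12, SE 0.44, adjusted p = 2.75e-08). Mlkl, which carries out necroptosis, changed by 3.15 (adjusted p = 1.72e-06), Gsdmd, the pore of pyroptosis, by 2.47 (adjusted p = 4.65e-04), and Casp1, the inflammasome protease, by 2.91 (adjusted p = 4.11e-04) or 2.31 (adjusted p = 8.44e-04) without LNPIFN-Y 5.

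Model and ptLNPIFN-Y ovaries help place these values, although all 3 sets of fold changes use the same Control libraries. No gene passed in Model against Control with edgeR, where 772 of 15723 genes (4.91%) had an unadjusted p under 0.05; no other tool was run on this pair. LNPIFN-Y against Model gave 825 genes higher (5.25%) and 89 lower (0.566%). The guanylate-binding proteins had a median of 0.54 in Model over Control, 4.81 in LNPIFN-Y over Control and 5.09 in ptLNPIFN-Y over Control. All 10 of them, 8 of 8 immunity-related GTPases, 12 of 14 class I genes and 18 of 19 NK and cytotoxic genes were also higher in LNPIFN-Y than in Model. For B and plasma cell genes that number was 0 of 14 with edgeR, and their list medians over Control were 0.72 (Model), 1.996 (LNPIFN-Y) and 2.96 (ptLNPIFN-Y). Irf1 was 49.99, 61.2, 73.3, 42.2 and 40.1 CPM in Model 1 to 5, close to Control, and its change from Model to LNPIFN-Y was 2.47 (SE 0.22, adjusted p = 5.13e-07). Gzmb was 0.626, 0.465, 0.182, 0.429 and 0.339 CPM in Model, within or near the Control range, and the change from Model to LNPIFN-Y was 4.57 (SE 0.32, adjusted p = 3.10e-08). Between ptLNPIFN-Y and LNPIFN-Y, edgeR called no gene, and 481 genes (3.06%) had an unadjusted p under 0.05, which does not show that the particles act alike.

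**Figure D4:**
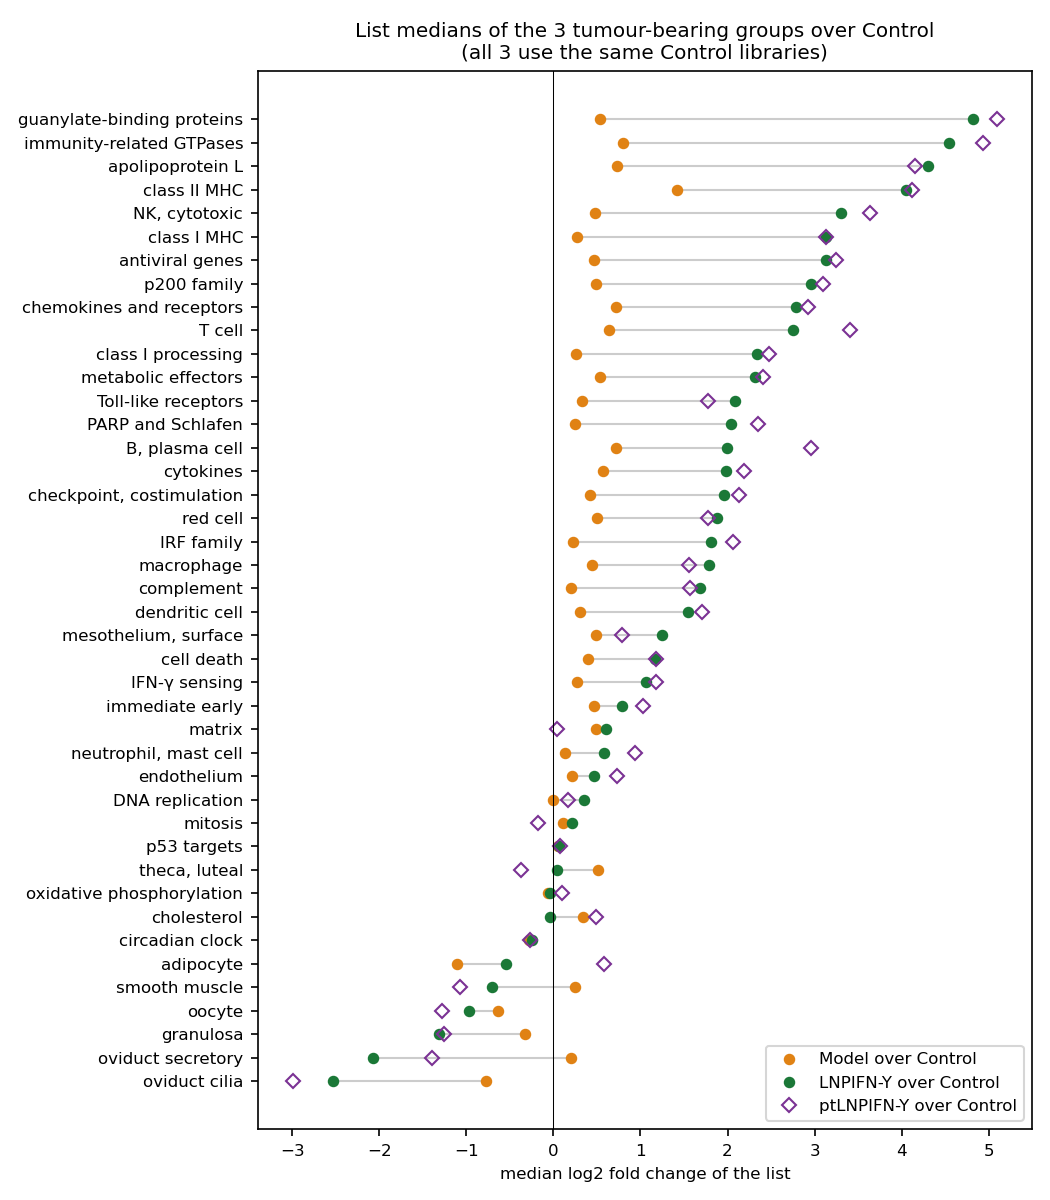
Median log2 fold change over Control of 42 gene lists for the Model (orange), LNPIFN-Y (green) and ptLNPIFN-Y (open diamonds) groups, ordered by the LNPIFN-Y value; all 3 share the Control libraries. The 13 lists of interferon response and antigen presentation genes, with chemokines and metabolic effectors, run from 0.23 to 1.42 in Model and from 1.06 to 4.81 in LNPIFN-Y, while the adipocyte and smooth muscle medians differ in sign between groups.

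Some genes were nearly silent in every Control ovary and present in every LNPIFN-Y ovary. By a rule chosen after the values were seen, at most 5 expected counts over the Control libraries and at least 10 in each LNPIFN-Y library, there were 11 such genes: Pax3, Mybphl, Ido1, Foxd1, Cngb3, Csta2, Ly6a2, Gpr33, Myh13, Gm4846 and Sh2d1a. Pax3 (chr1:78101267-78197136, minus strand, GRCm38), a transcription factor of the neural crest and of muscle progenitors, had 0, 0, 0, 0 and 0 expected counts in Control and 342, 69, 128, 47 and 703 in LNPIFN-Y. Its summed count was at least 429.7-fold higher against a floor of 3 counts over the Control group (adjusted p = 0.00369). Mybphl, a myosin-binding protein of the heart, had 0, 0, 0, 0 and 0 in Control and 619, 121, 193, 148 and 103 in LNPIFN-Y, at least 395-fold higher (adjusted p = 0.00325). Both were present without LNPIFN-Y. Model 1 to 5 had 7, 36, 505, 14 and 7 counts of Pax3 and 12, 79, 566, 31 and 2 of Mybphl. Model 3 lay far above the other 4 in both. The log2 fold change of LNPIFN-Y over Model was 1.27 (SE 1.19, adjusted p = 0.599) for Pax3 and 0.84 (SE 1.13, adjusted p = 0.730) for Mybphl. With the tissue covariates the Pax3 call was lost (adjusted p = 0.0521) and that of Mybphl was kept (adjusted p = 0.0450). The calls of Pax3 without LNPIFN-Y 5 and of Mybphl without LNPIFN-Y 1 were kept (adjusted p = 0.00781 and 0.00687). With the highest library left out, LNPIFN-Y 5 for Pax3 and LNPIFN-Y 1 for Mybphl, the sums over the other 4 libraries were at least 195-fold and 188-fold higher against the same floor. Of the 11 genes, 6 lost their calls with the tissue covariates, Pax3, Foxd1, Cngb3, Csta2, Myh13 and Gm4846, and 2 without LNPIFN-Y 1 and 5, Foxd1 and Myh13. Model 3 held the highest Model count of 8 of the 11 genes. Those 8 include all 5 genes with a log2 fold change of LNPIFN-Y over Model under 2. High Model counts themselves lower that value, so the overlap is no separate result.

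Further genes, also chosen after their values were seen, also had their highest Model count in Model 3. Col17a1, a collagen of hemidesmosomes, had 15, 10, 13, 24 and 17 expected counts in Control, 70, 226, 745, 55 and 19 in Model and 1074, 206, 318, 361 and 58 in LNPIFN-Y. LNPIFN-Y 1 and Model 3 were the highest of their groups. The log2 fold change over Control was 4.82 (SE 1.06, adjusted p = 0.00497), and 3.98 (adjusted p = 0.0161) without LNPIFN-Y 1. Bmerb1 had 6, 6, 5, 9 and 8 in Control, 21, 105, 626, 42 and 4 in Model and 724, 165, 299, 239 and 33 in LNPIFN-Y, a log2 fold change of 5.54 (SE 1.24, adjusted p = 0.00577), or 4.80 (adjusted p = 0.0165) without LNPIFN-Y 1. AA467197 had 1, 3, 1, 6 and 32 in Control, 23, 223, 2016, 78 and 38 in Model and 2961, 681, 1124, 370 and 1591 in LNPIFN-Y, a log2 fold change of 7.42 (SE 1.42, adjusted p = 0.00157), or 9.03 (adjusted p = 0.00198) without Control 5. With the tissue covariates, Col17a1 and Bmerb1 lost their calls, at 3.96 (adjusted p = 0.0837) and 4.73 (adjusted p = 0.0682). Lgals1, which encodes galectin 1, went from 266, 249.6, 287, 325 and 356 CPM in Control to 2496, 741, 1154, 684 and 2474 in LNPIFN-Y and was 438, 600.2, 4433, 298 and 199 CPM in Model, where Model 3 again stood apart. Its change over Control was 2.35 (SE 0.73, adjusted p = 0.0404), a call lost without Control 1, 2, 3, 4 or 5 or LNPIFN-Y 1 or 5 (adjusted p from 0.0630 to 0.0986) and with the tissue covariates, at 0.88 (adjusted p = 0.655), and without LNPIFN-Y 1 and 5, at 1.56 (adjusted p = 0.315). Other genes of the rule were near 0 in the Model group too: Cngb3, a channel of cone photoreceptors, had 1, 1, 0, 0 and 1 expected counts in Control, 0, 0, 0, 0 and 1 in Model and 126, 17, 11, 32 and 31 in LNPIFN-Y. LNPIFN-Y 1 was highest, and the ratio of LNPIFN-Y to Control counts was 72.3 (95% counting interval 24.4 to 353). The fitted value moved by over 1.5 times without LNPIFN-Y 1, with the call kept (adjusted p = 0.00108), and the call was lost with the tissue covariates (adjusted p = 0.0930).

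**Figure D5:**
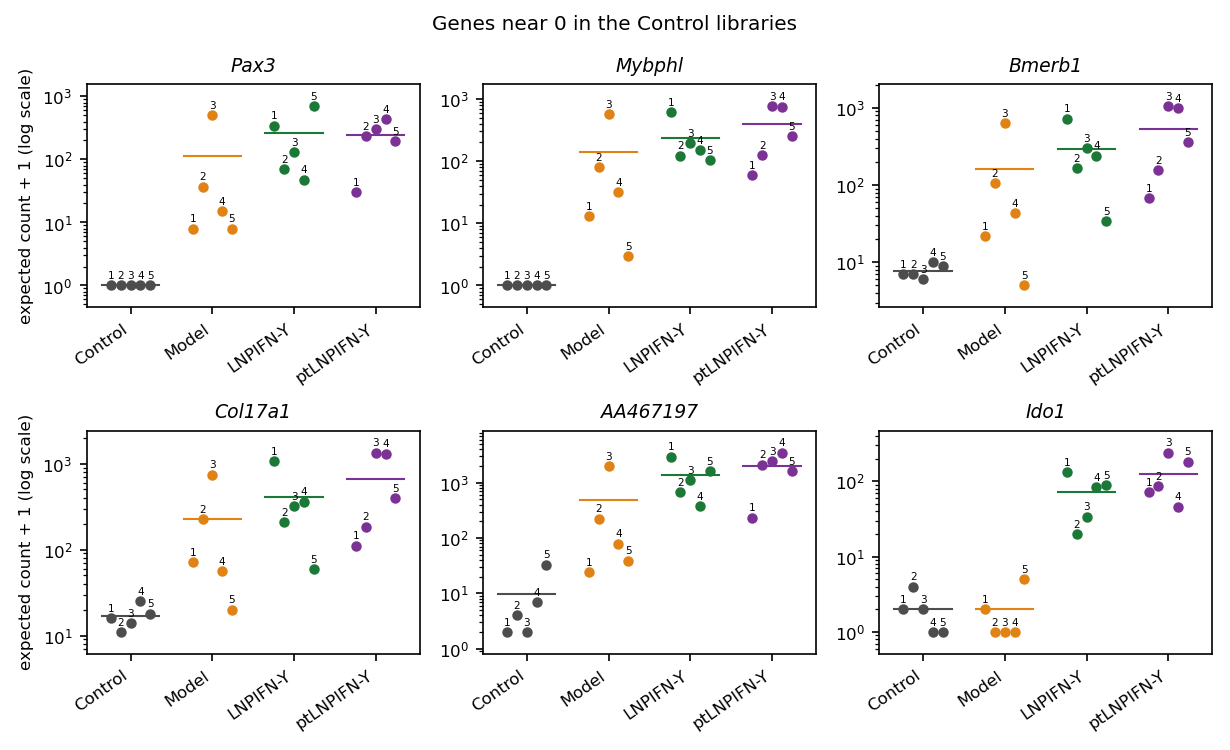
Expected count + 1 on a log scale of 6 genes with low counts in the Control libraries, in each library of the 4 groups. The library number stands above each point and the group mean is a line. Pax3, Mybphl and Ido1 meet the rule of at most 5 counts over Control, whereas Bmerb1, Col17a1 and AA467197 do not. In 5 of the 6 genes Model 3 is the highest Model library, whereas Ido1 stays at or below 5 counts over the Model group.

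Follicle lists had negative medians for granulosa and oocyte genes, and 1 gene passed the test. In the granulosa list 1 of 19 tested members fell, against 3.28% of all genes, and the list median was -1.31. The median was -0.093 with the tissue covariates and -0.66 without LNPIFN-Y 1 and 5. The follicle covariate is the mean level of the granulosa and oocyte lists themselves. Adjusting these lists by their own level removes shared differences by construction, so their values with the tissue covariates are no check. An unadjusted p under 0.05 and a lower level held for 6 granulosa genes, DESeq2 called 2 lower and limma 3, and 8 had every LNPIFN-Y library below every Control library, against 6.5% of all genes. The called gene was Grem1, an inhibitor of bone morphogenetic proteins, with 3, 98, 181, 5 and 85 expected counts in Control and 0, 0, 1, 0 and 2 in LNPIFN-Y. Control 1 and 4 were low too, and the summed Control count was 124 times that of LNPIFN-Y (95% counting interval 42.1 to 604; adjusted p = 0.0217). The Grem1 call was lost without Control 3 or LNPIFN-Y 1 (adjusted p from 0.0508 to 0.0575), without LNPIFN-Y 1 and 5 (adjusted p = 0.128), with limma's sample weights (adjusted p = 0.104) and with the tissue covariates (adjusted p = 0.463). Without LNPIFN-Y 5, which holds 2 of the 3 LNPIFN-Y counts, the fitted Grem1 value moved by over 1.5 times with the call kept (adjusted p = 0.0405). Amh was at 182, 55.6, 100.004, 163 and 196 CPM in Control and 11.9, 120.4, 78.04, 117 and 1.98 CPM in LNPIFN-Y, overlapping ranges with a log2 fold change of -1.08 (adjusted p = 0.304). Zp3 was at 27.5, 8.08, 34.1, 39.8 and 35.3 CPM in Control and 2.59, 29.5, 14.8, 27.4 and 0 CPM in LNPIFN-Y (-0.96, adjusted p = 0.526). Its sign turned to 0.68 with the tissue covariates. Foxl2, a factor that keeps granulosa cell identity, was at -0.54 (adjusted p = 0.604), and its sign turned to 0.64 with those covariates and to 0.11 without LNPIFN-Y 1 and 5. Cyp17a1, the androgen-making enzyme of theca cells, had 1.31, 16.3, 159, 1.94 and 125 CPM in Control and 5.06, 1.63, 1.54, 2.68 and 0.728 CPM in LNPIFN-Y. Control 3 and 5 carried most of the Control level, and the log2 fold change was -4.71 (adjusted p = 0.0620). Star, which brings cholesterol into steroid-making mitochondria, was at 1.002 (adjusted p = 0.360). Over all genes DESeq2 called 9.11% lower and 14.0% higher, and limma with sample weights 15.4% and 17.4%. In the oocyte list edgeR called 0 of 29 genes (0 with an unadjusted p under 0.05 and lower; 0 by DESeq2 and 0 by limma), with a median of -0.97 (0.39 with the tissue covariates and -0.30 without LNPIFN-Y 1 and 5) and with Zbed3 at -0.65 (adjusted p = 0.187) as the member with the smallest p. In the theca and luteal list edgeR called 0 of 14 (2 unadjusted and lower; 2 lower by DESeq2, 1 higher by limma), with a median of 0.036 (1.16 with the tissue covariates and 0.62 without LNPIFN-Y 1 and 5).

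Oviduct genes had the lowest list medians, -2.53 for cilia and -2.07 for secretory genes, and no member passed with edgeR. Without LNPIFN-Y 3 the cilia median was -5.70. It was 0.054 with the tissue covariates and -1.78 without LNPIFN-Y 1 and 5, and the secretory median was 0.00126 with the tissue covariates and -1.58 without LNPIFN-Y 1 and 5. The oviduct covariate is the mean level of these same lists, so values near 0 with it follow by construction. Of 25 cilia genes 5 had an unadjusted p under 0.05, DESeq2 called 1 lower and limma with sample weights 18, and of 14 secretory genes the numbers were 5, 3 and 6. Ovgp1, the oviduct glycoprotein, had 116412, 239772, 81167, 74757 and 18902 expected counts in Control and 31, 746, 68695, 3197 and 60 in LNPIFN-Y. LNPIFN-Y 3 was within the Control range and the other 4 were far below it (-2.87, SE 1.95, adjusted p = 0.298). Foxj1, the master factor of motile cilia, showed the same split at 121, 225, 149, 74.1 and 17.7 CPM in Control and 1.62, 3.84, 85.4, 0.426 and 1.72 CPM in LNPIFN-Y (-2.65, adjusted p = 0.248). Tekt2, a protein of the ciliary axoneme, was at -1.98 (adjusted p = 0.0539), and Pax8, a factor of oviduct secretory cells, at -2.57 (adjusted p = 0.109). Model 1 also had little Ovgp1, at 2.67, 6293, 1196, 3196 and 8494 CPM in Model 1 to 5. Whether pieces of oviduct differed between the dissections was not tested.

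Other neighbouring tissues varied between libraries. Smooth muscle genes had a median of -0.70 and edgeR called 0 of 16 (4 unadjusted and lower; 1 by DESeq2, 5 by limma); Myh11, smooth muscle myosin, was at 369 ± 39.7 CPM in Control and 239 ± 87.4 CPM in LNPIFN-Y (-0.63, adjusted p = 0.356), and Pln, which regulates the calcium pump, was at -1.36 (adjusted p = 0.0809). Adipocyte genes had a median of -0.54 with 0 of 18 called (2 unadjusted and lower; 2 by DESeq2, 2 by limma). Adipoq, the fat hormone adiponectin, ranged from 149.6 to 1066 CPM in Control and 103 to 995 CPM in LNPIFN-Y, and Thrsp, which promotes fat synthesis, was at -2.41 (adjusted p = 0.0775). Haemoglobin and Alas2, genes of red cells, had a median of 1.88 and 0 of 5 called by edgeR (5 unadjusted and higher; 4 by DESeq2, 5 by limma). Hbb-bs was at 58.9, 101, 42.7, 49.9 and 190.4 CPM in Control and 553, 375, 303, 422 and 50.5 CPM in LNPIFN-Y, where LNPIFN-Y 5 alone was within the Control range. Of 3 tested genes each for liver, exocrine pancreas and skeletal muscle, 1 in all was called, near the 10.8% of all genes that rose. It was Pnlip, a pancreatic lipase, with means of 0.131 CPM in Control and 2.92 CPM in LNPIFN-Y (4.38, SE 1.36, adjusted p = 0.0392). Its call was lost without Control 1, 2, 3, 4 or 5 or LNPIFN-Y 1 or 5 (adjusted p from 0.0654 to 0.0887), at 3.81 (adjusted p = 0.184) without LNPIFN-Y 1 and 5 and at 2.91 (adjusted p = 0.393) with the tissue covariates. Model 3 had the highest Pnlip count of all 20 libraries, at 2, 8, 225, 10 and 1 counts in Model 1 to 5. The medians of these lists were -0.72, 1.81 and -0.36.

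Among mesothelial and ovarian surface genes, 2 of 10 tested members rose, against 10.8% of all genes (median 1.25), and both calls, Upk1b and Muc16, were lost without LNPIFN-Y 1 and 5 and with the tissue covariates, at 0.92 (adjusted p = 0.469) and 1.03 (adjusted p = 0.296). Upk1b, a membrane protein of urothelium and mesothelium, had 35.5, 40.8, 48.8, 47.6 and 42.8 CPM in Control and 110.2, 87.2, 67.2, 69.9 and 334 CPM in LNPIFN-Y. LNPIFN-Y 5 stood highest, and the change was 1.63 (SE 0.40, adjusted p = 0.0103) with it and 0.96 (adjusted p = 0.0325) without it. Muc16, the CA-125 mucin, rose by 1.44 (adjusted p = 0.0107). Msln, which encodes mesothelin, was at 53.7, 74.2, 51.5, 61.3 and 56.8 CPM in Control and 177, 80.5, 95.96, 46.8 and 392 CPM in LNPIFN-Y, overlapping ranges with LNPIFN-Y 5 and 1 highest (1.41, adjusted p = 0.0746), and Wt1 was at 1.12 (adjusted p = 0.0983). Of the endothelial list 3 of 17 tested members rose, against 10.8% of all genes (median 0.46; 2 with the tissue covariates and 2 without LNPIFN-Y 1 and 5). Those were the adhesion molecules Icam1 (2.53, adjusted p = 1.44e-04) and Vcam1 (2.43, adjusted p = 2.15e-04), which cytokines induce, and Flt1, a VEGF receptor (1.13, adjusted p = 0.0221), whose call was lost without Control 1 or 3 or LNPIFN-Y 5 (adjusted p from 0.0578 to 0.0855), with the tissue covariates at 0.26 (adjusted p = 0.754) and without LNPIFN-Y 1 and 5 at 0.59 (adjusted p = 0.268). Pecam1, a general endothelial marker, was at 0.46 (adjusted p = 0.244). In the matrix list 5 of 33 tested members passed and were higher, against 10.8% of all genes and so near that share, with a median of 0.60 that was -0.11 with the tissue covariates and 0.19 without LNPIFN-Y 1 and 5. They were Sparc, Loxl1, Mmp3, Mmp13 and Timp3. Mmp13, a collagenase, had 0.708, 1.21, 1.10, 0.538 and 1.43 CPM in Control and 2.14, 3.90, 4.78, 4.26 and 2.91 CPM in LNPIFN-Y (1.84, SE 0.36, adjusted p = 0.00170), and it alone of the 5 was called with the tissue covariates and alone without LNPIFN-Y 1 and 5. The calls of Sparc (1.07, adjusted p = 0.0174), Loxl1 (1.62, adjusted p = 0.0315), Mmp3 (1.87, adjusted p = 0.0484) and Timp3 (1.51, adjusted p = 0.0346) were each lost without 1 library or more, by name Control 2 or 3 or LNPIFN-Y 5 for Sparc, Control 1, 2, 3 or 5 or LNPIFN-Y 1 or 5 for Loxl1, Control 1, 2, 3 or 5 or LNPIFN-Y 1, 2, 4 or 5 for Mmp3, and Control 1 to 5 or LNPIFN-Y 1 or 5 for Timp3.

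Cell cycle, p53, cholesterol and respiration lists had medians between -0.043 and 0.36. Mki67, a marker of cycling cells, was at 149.8, 80.2, 78.5, 139 and 93.4 CPM in Control and 79.5, 114, 105, 116 and 194 CPM in LNPIFN-Y, overlapping ranges with a log2 fold change of 0.17 (adjusted p = 0.638). Its sign turned to -0.11 with limma's sample weights, -0.16 with the tissue covariates and -0.060 without LNPIFN-Y 5. The edgeR test called 0 of 30 mitosis genes (2 unadjusted and higher; 0 by DESeq2 and 0 by limma), with a median of 0.22 and with Anln, a scaffold of the cleavage furrow, at 0.70 (adjusted p = 0.0919). In the DNA replication list 2 of 25 tested genes rose, against 10.8% of all genes and so below that share (median 0.36; 10 unadjusted and higher; 5 by DESeq2 and 5 by limma). Rrm1, a subunit of ribonucleotide reductase, rose by 1.39 (adjusted p = 0.0406) and lost its call without Control 1, 2, 3, 4 or 5 or LNPIFN-Y 1 or 5 (adjusted p from 0.0589 to 0.122). Pcna, the sliding clamp of replication, rose by 0.57 (adjusted p = 0.0272) and lost its call without Control 2 or 3 or LNPIFN-Y 1 or 5 (adjusted p from 0.0645 to 0.0877). Both also lost it with the tissue covariates and without LNPIFN-Y 1 and 5. Of 20 p53 targets 1 rose, against 10.8% of all genes and so below that share. It was Cdkn1a, the cell cycle inhibitor p21, at 0.57 (adjusted p = 0.0402). Cdkn1a lost that call without Control 1, 2, 3, 4 or 5 or LNPIFN-Y 1, 2 or 5 (adjusted p from 0.0520 to 0.128) and with limma's weights. The call was also lost with the tissue covariates at 0.23 (adjusted p = 0.700) and without LNPIFN-Y 1 and 5 at 0.27 (adjusted p = 0.424). Oxidative phosphorylation had a median of -0.039 and 0 of 46 genes called by edgeR (2 unadjusted and lower; 1 by DESeq2, 2 by limma), with Atp5g3, a subunit of ATP synthase, at -0.43 (adjusted p = 0.0631). Cholesterol synthesis genes had a median of -0.043, and 2 of 24 rose, against 10.8% of all genes and so below that share: Ebp, a sterol isomerase, by 0.63 (adjusted p = 0.0114), and Srebf2, the factor that drives the pathway, by 0.40 (adjusted p = 0.0359). The Srebf2 call was lost without Control 1, 2, 4 or 5 or LNPIFN-Y 1, 2 or 5 (adjusted p from 0.0506 to 0.0989). Neither Ebp nor Srebf2 was called with the tissue covariates or without LNPIFN-Y 1 and 5, and Ebp was at 0.28 (adjusted p = 0.349) and 0.46 (adjusted p = 0.165).

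In the circadian clock list 3 of 19 genes fell, against 3.28% of all genes. In the same list 1 rose, against 10.8% of all genes and so below that share, and the median was -0.25. Usp2, a deubiquitinase with daily rhythm, was at 20.9, 41.3, 25.4, 18.6 and 19.6 CPM in Control and 8.23, 6.81, 14.1, 4.68 and 4.96 CPM in LNPIFN-Y, without overlap (-1.70, SE 0.43, adjusted p = 0.0139). Ciart, a repressor of the clock, changed by -1.19 (adjusted p = 0.00999), and its Model over Control value was -1.16. Cry1, another repressor, fell by 1.18 (adjusted p = 0.0209), a call lost without Control 3 or LNPIFN-Y 1 or 5 (adjusted p from 0.0510 to 0.0599). Nfil3, a repressor of the clock that cytokines induce in lymphocytes, rose by 0.97 (adjusted p = 0.0128). The hour of tissue collection is not labelled, so its part in these values was not tested. Immediate early genes, which respond quickly to handling and stimulation, rose in 5 of 22, against 10.8% of all genes (median 0.78): Jun, Junb, Atf3, Klf4 and Klf6. Junb had 18.6, 18.04, 18.6, 19.1 and 28.98 CPM in Control, 78.02, 66.2, 35.9, 42.4 and 19.6 CPM in Model and 77.4, 58.7, 36.6, 31.9 and 101 CPM in LNPIFN-Y (1.57, SE 0.38, adjusted p = 0.0106 over Control). Klf4 had 9.32, 15.9, 18.8, 9.68 and 15.96 CPM in Control and 68.1, 19.7, 23.6, 16.9 and 222 CPM in LNPIFN-Y, where LNPIFN-Y 5 was far above the others (2.33, SE 0.72, adjusted p = 0.0385); the call was lost without Control 1, 2, 3, 4 or 5 or LNPIFN-Y 1 or 5 (adjusted p from 0.0615 to 0.204). Klf6 changed by 0.78 (adjusted p = 0.00920). Jun (0.95, adjusted p = 0.0226) lost its call without Control 1, 3 or 4 or LNPIFN-Y 1 or 5 (adjusted p from 0.0511 to 0.0800), and Atf3 (1.25, adjusted p = 0.0169) without Control 1 or 3 or LNPIFN-Y 1 or 5 (adjusted p from 0.0514 to 0.0621). None of the clock and immediate early calls stayed with the tissue covariates or without LNPIFN-Y 1 and 5.

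The 10 lowest genes by the naming rule fell by 2.45 to 3.54 on the log2 scale. Retnla, a secreted product of alternatively activated macrophages, had 8.55, 27.4, 12.4, 10.2 and 17.4 CPM in Control and 2.27, 0.0582, 0.911, 3.59 and 0.926 CPM in LNPIFN-Y. The groups did not overlap (-3.29, SE 0.84, adjusted p = 0.0139), and the call was lost with the tissue covariates (-3.84, adjusted p = 0.0560) and without LNPIFN-Y 1 and 5 (-3.28, adjusted p = 0.105). Klk1, a serine protease, had 5.28, 7.05, 7.20, 5.81 and 3.56 CPM in Control and 0.713, 0.873, 1.37, 1.58 and 0.198 CPM in LNPIFN-Y (-2.60, SE 0.57, adjusted p = 0.00519). Gsta2, a glutathione transferase, changed by -2.80 (adjusted p = 0.0169). The others were Atp6v1c2, a proton pump subunit (-3.54, adjusted p = 0.0267), Cacna2d3, a calcium channel subunit (-3.10, adjusted p = 0.0391), Cdh4, a cadherin (-2.72, adjusted p = 0.0247), Sbspon (-2.60, adjusted p = 0.0498), Tmem132c (-2.49, adjusted p = 0.0161), Ces1f, a carboxylesterase (-2.46, adjusted p = 0.0435), and Rtn1, a protein of the endoplasmic reticulum (-2.45, adjusted p = 0.0370). Each of those 7 lost its call without at least 1 single library: Atp6v1c2 without Control 2 or 3 or LNPIFN-Y 1, 2, 4 or 5 (adjusted p from 0.0503 to 0.0709), Cacna2d3 without Control 1, 2, 3 or 4 or LNPIFN-Y 1, 2, 4 or 5 (adjusted p from 0.0505 to 0.0955), Cdh4 without Control 2 or 3 or LNPIFN-Y 1, 4 or 5 (adjusted p from 0.0510 to 0.0658), Sbspon without Control 1, 2, 3 or 4 or LNPIFN-Y 1, 2, 3, 4 or 5 (adjusted p from 0.0527 to 0.176), Tmem132c without Control 2 (adjusted p = 0.0686), Ces1f without Control 1, 2, 3 or 5 or LNPIFN-Y 2, 3, 4 or 5 (adjusted p from 0.0504 to 0.140) and Rtn1 without Control 1, 2 or 3 or LNPIFN-Y 1, 2, 4 or 5 (adjusted p from 0.0576 to 0.104). All 10 lost their calls with the tissue covariates and without LNPIFN-Y 1 and 5. Leaving out LNPIFN-Y 3 moved Atp6v1c2 to -4.55 (adjusted p = 0.0108), Cacna2d3 to -3.74 (adjusted p = 0.0238) and Cdh4 to -3.59 (adjusted p = 0.00619). Atp6v1c2 showed the pattern of the oviduct genes, at 10.1, 21.5, 12.9, 5.48 and 3.44 CPM in Control and 0.713, 0.116, 2.73, 0.730 and 0.265 CPM in LNPIFN-Y, with LNPIFN-Y 3 the highest of its group.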

How the data were processed

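Bulk poly(A) RNA-seq was made from snap-frozen mouse ovaries with oligo(dT) beads and DNBSEQ sequencing, per the labels' protocols. The authors deposited expected counts per gene for 20 libraries; HISAT2, StringTie, RSEM, DESeq2 and GRCm38.p6 stand in the submitters' processing notes without versions or roles, and whether strand was used is not given in the sources used here, so a gene and an antisense partner cannot be told apart. The table held 20960 genes, of which 20742 are protein-coding; 9.85% of the expected counts had decimals and were rounded to whole numbers. No pair of libraries held identical values. Groups follow the treatment labels, 5 libraries each.

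Genes passing filterByExpr (minimum count 10) were scaled by TMM (factors 0.885 to 1.11) and tested with edgeR 4.0.16 quasi-likelihood (R 4.3.3) in 1 fit of all 20 libraries with 16 residual degrees of freedom; limma 3.58.1 and DESeq2 1.42.0 were alternatives. CPM are TMM-scaled, with the library spread as SD. Per library, 16529892 to 17113937 counts were available, and intervals and floors of counts cover counting error only. In simulated data with known changes, the test recovered 52% of 100 genes changed 2-fold and 81% of 100 changed 4-fold. Of its calls there, 3.62% were false. The simulated counts were drawn independently, without the shared tissue differences seen between these libraries. Of the IDs, 20899 matched RefSeq and 61 did not. Promoter windows came from RefSeq (GRCm38.p6).

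Genes were named by a rule: IFN-γ and tissue markers, the 10 highest and 10 lowest called genes without overlap between groups and averaging 1 or more in log2 CPM (clone-type symbols and receptor segments left out), and for each list the called members with the largest change and the smallest p (or, with none called, the smallest p). Other named genes were chosen after their values were seen, and some withheld results are not reported here. The comparison, lists and rule were chosen with earlier results of these data known. Alternatives were other scalings, no filter, both groups alone, limma sample weights, a replicate block, tissue covariates (mean levels of the oviduct lists and of the granulosa and oocyte lists), a fold threshold and leaving out libraries.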

Additional observations from a re-analysis of the deposited data

Results flagged for a closer look

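A library was marked where its distance to the nearest of the other 4 libraries of its group was more than 0.71 of the group's whole range (Dixon's 95% limit). This held for 37 of 426 groups of 5 tested over the named genes and lists, and chance marks about 1 in 20. Values are CPM. Control 1 was lowest at 0.599 for Xcr1 against 1.13 to 1.26 in the other 4. Control 2 was highest at 27.5 for Cd14 against 8.84 to 11.1 in the other 4, 194 for Ces1f against 38.7 to 59.1 and 22.7 for Sbspon against 2.35 to 6.48. It was also highest at 62.3 for Tlr4 against 25.9 to 26.6, 18.8 for Tmem132c against 2.47 to 6.76 and 0.0607 for Ifi214 against 0 to 0. Control 2 was lowest at 79.8 for Zbed3 against 119 to 133 in the other 4. The oocyte list level was -0.090 in Control 2, below 1.19 to 1.53 in the other 4. Control 5 was highest at 1.84 for AA467197 against 0.0545 to 0.323 in the other 4, 0.631 for Acod1 against 0 to 0.121 and 0.517 for H2-Eb2 against 0.109 to 0.215. It was also highest at 2.47 for Havcr2 against 0.968 to 1.22, 28.98 for Junb against 18.04 to 19.1 and 0.115 for Csta2 against 0 to 0. LNPIFN-Y 1 was highest at 1789.8 for C4b against 614 to 829 in the other 4, 333 for Cd274 against 116 to 168 and 8.17 for Cngb3 against 0.626 to 2.05. It was also highest at 69.6 for Col17a1 against 3.84 to 21.96, 7.13 for Foxp3 against 1.12 to 2.01 and 12.5 for Lag3 against 7.57 to 8.32. It was also highest at 40.1 for Mybphl against 6.81 to 10.99, 6.55 for Csta2 against 1.16 to 1.75 and 2.79 for Gm4846 against 1.16 to 1.28. LNPIFN-Y 2 was highest at 3.55 for Ly6a2 against 1.59 to 1.94 in the other 4. LNPIFN-Y 3 was highest at 2.73 for Atp6v1c2 against 0.116 to 0.730 in the other 4, 85.4 for Foxj1 against 0.426 to 3.84 and 3910.03 for Ovgp1 against 2.01 to 194. It was also highest at 22.5 for Pax8 against 0.992 to 4.47 and 4.497 for Tekt2 against 0.931 to 1.56. LNPIFN-Y 5 was highest at 99.5 for Anln against 35.4 to 47.98 in the other 4, 103 for Flt1 against 31.5 to 48.4 and 222 for Klf4 against 16.9 to 68.1. It was also highest at 369.8 for Loxl1 against 81.4 to 165, 1999.7 for Timp3 against 398 to 721 and 334 for Upk1b against 67.2 to 110.2. The red cell list level was -1.54 in LNPIFN-Y 5, below 1.08 to 1.80 in the other 4.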

How the results depend on the processing

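The 1699 higher and 515 lower genes became 2196 and 1428 with DESeq2, 1670 and 591 with RLE factors, 1490 and 1029 with upper-quartile scaling, 1372 and 1265 with library size alone, 1545 and 458 with no filter, 1930 and 799 with both groups alone, 2735 and 2427 with limma's sample weights, 578 and 25 with the tissue covariates, and 1121 and 200 with a log2 fold change of at least 1. DESeq2 called 60.6% of its genes higher and limma 53%. Leaving out 1 library at a time gave 1120 to 1865 higher and 189 to 1411 lower, and leaving out LNPIFN-Y 1 and 5, chosen after seeing the data, gave 835 and 32. Fits without a library rest on fewer samples, and the cause of the other shifts was not tested. Same-numbered deviations from the group means correlated at -0.44, -0.45, 0.35, 0.18 and 0.14 for numbers 1 to 5, and only number 5 was its own best match. Tissue differences between libraries also enter these values, so whether same-numbered libraries shared any handling was not tested. The replicate block gave 1339 and 303 genes with an oviduct cilia median of -4.93.

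Of 136 called genes named in the text, 83 kept the call under every alternative run, 53 lost it with the tissue covariates, including all 16 lower ones, 29 without at least 1 single library, 42 without LNPIFN-Y 1 and 5, and 18 with the block. With the tissue covariates, whose oviduct and follicle levels are built from these libraries, list medians were 1.34 (interferon regulatory factors), 2.02 (chemokines), 1.94 (class I processing), 3.14 (class II), 2.24 (p200), 1.64 (PARP and Schlafen), 3.75 (apolipoprotein L), 1.76 (metabolic effectors), 2.03 (T cell), 2.81 (NK and cytotoxic), 1.20 (B and plasma cell), 0.81 (dendritic), 0.83 (macrophage), -0.47 (neutrophil and mast cell), 1.28 (Toll-like), 0.65 (complement), 1.25 (cytokines), 0.66 (cell death), 0.054 (oviduct cilia), 0.00126 (oviduct secretory), 0.46 (mesothelial), -1.83 (adipocyte), -0.11 (matrix) and -0.20 (oxidative phosphorylation). The oviduct medians near 0 follow from building that covariate from the oviduct lists themselves. For the other lists and genes, that covariate can also take up part of the group difference, because its level differs between the groups. Without LNPIFN-Y 1 and 5 the list medians were 0.68 (IFN-γ sensing), 1.58 (interferon regulatory factors), 2.13 (class I processing), 3.37 (apolipoprotein L), 1.96 (metabolic effectors), 2.31 (checkpoint), 0.997 (dendritic), 0.080 (neutrophil and mast cell), 1.14 (complement), 0.78 (cell death) and 0.49 (mesothelial). With limma's sample weights they were 0.68 (IFN-γ sensing), 3.41 (apolipoprotein L), 2.30 (checkpoint) and 1.40 (complement). Leaving out 1 library gave ranges of 3.93 to 4.40 for apolipoprotein L, 1.83 to 2.33 for checkpoint, 0.0992 to 0.72 for neutrophil and mast cell and -5.70 to -2.09 for oviduct cilia genes, the lowest cilia value without LNPIFN-Y 3.

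Signs of uncalled genes turned for Irf3 (-0.047 with upper-quartile scaling, -0.083 with library size alone), Mki67 (-0.11 with limma, -0.16 with the tissue covariates, from -0.060 to 0.30 without 1 library, negative without LNPIFN-Y 5), Foxl2 (0.64 with the covariates, 0.11 without LNPIFN-Y 1 and 5) and, with the covariates, Zp3 (0.68), H2-Q2 (0.88), Mrc1 (-0.28), Nos2 (0.053) and Tcf7 (-0.013). The cause was not tested. At this depth genes with few counts, such as Ifng or Cngb3, carry wide errors.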

Other observations

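Other genes of the rule on near-silent Control ovaries split by their Model libraries, as values chosen after they were seen. Foxd1, a transcription factor of kidney stroma, had 0, 0, 1, 1 and 1 expected counts in Control, 2, 12, 163, 5 and 6 in Model and 100, 15, 33, 12 and 108 in LNPIFN-Y, with Model 3 above every LNPIFN-Y library. Myh13, a myosin of eye muscles, had 0, 2, 2, 1 and 0 in Control, 1, 7, 86, 0 and 1 in Model and 56, 21, 28, 15 and 11 in LNPIFN-Y, again with Model 3 highest of all. Csta2, an inhibitor of cysteine proteases, had 1, 4, 38, 1 and 0 in Model and 101, 30, 26, 19 and 23 in LNPIFN-Y, and Gm4846 had 2, 4, 28, 3 and 0 and 43, 22, 21, 19 and 18. Sh2d1a, the SAP adaptor of T and NK cell signalling, had 2, 0, 0, 1 and 2 in Control, 2, 2, 5, 1 and 1 in Model and 18, 27, 17, 10 and 16 in LNPIFN-Y, and every LNPIFN-Y library lay above every Model library. Gpr33, a receptor of the chemoattractant family, had 2, 2, 6, 1 and 1 in Model and 46, 19, 20, 20 and 30 in LNPIFN-Y, and Ly6a2 had 1, 3, 1, 2 and 0 and 29, 61, 34, 27 and 24, both without overlap. In the ptLNPIFN-Y libraries Pax3 had 29, 235, 303, 438 and 195 counts and Sh2d1a 10, 25, 13, 46 and 34.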
